A study of Mus musculus with 18 samples.

Results

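The genes described here were 8 Wnt ligands (Wnt4, Wnt5a, Wnt6, Wnt7a, Wnt7b, Wnt9b, Wnt10a and Wnt11) and Axin2 and Lgr5, which serve in many tissues as readouts of Wnt/β-catenin signaling. They were chosen by name, 10 genes of the 36528 in the deposited tables, at a time when earlier results of these data were known. RNASeq was performed on primary murine RPTEC, renal tubular epithelial cells of C57BL/6 mice from a commercial supplier (ScienCell). Cells received vehicle (DMSO), recombinant mouse TWEAK at 100 ng/mL, or TWEAK at 100 ng/mL with 3 μM NIK SMI1, and were collected at 6 h and 24 h, with 3 samples in each of the 6 groups. TWEAK is a cytokine of the TNF superfamily that activates canonical and non-canonical NF-κB signaling, and NIK SMI1 is a small molecule inhibitor of NIK, the kinase on which the non-canonical branch depends. No group received NIK SMI1 without TWEAK, so an effect of the inhibitor on unstimulated cells was not measured. The labels do not say whether the samples of a group were separate cell preparations, and the p-values measure only the spread between these samples.

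Wnts are secreted, lipid-modified proteins. Porcupine (Porcn) attaches the lipid, Wntless (Wls) carries the ligand to the cell surface, and Frizzled receptors bind it together with Lrp5 or Lrp6 or with other co-receptors. In the canonical branch β-catenin escapes the destruction complex, enters the nucleus and works with TCF/LEF factors on target genes such as Axin2, a feedback inhibitor, and Lgr5, a receptor for R-spondins. Wnt5a and Wnt11 act mostly through branches that do not use β-catenin. In kidney development Wnt9b and Wnt4 drive the formation of nephrons, Wnt11 is expressed at the tips of the ureteric bud, and Wnt7b of the collecting duct is needed for the medulla.

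Promoter sequences are shown for Wnt11, the ligand with the largest rise under TWEAK, and for Wnt7a, a ligand that fell at both times, since they were the members of each direction that also moved with NIK SMI1 at both times. The RefSeq promoter table (GRCm38.p6) held 7 start site windows of 6 of the genes (Wnt4, Wnt6, Wnt7a, Wnt9b, Wnt11 and Axin2), each reaching from 250 bases before to 50 bases after the start. Only the bases before the annotated gene are given, in the direction of transcription, and capitals mark a match to the core TCF/LEF motif, CTTTGAT or its reverse complement ATCAAAG. The first stretch is chr7:98834862-98835083 on the plus strand, 222 bases, and the second chr6:91411354-91411603 on the minus strand, 250 bases.
Wnt11: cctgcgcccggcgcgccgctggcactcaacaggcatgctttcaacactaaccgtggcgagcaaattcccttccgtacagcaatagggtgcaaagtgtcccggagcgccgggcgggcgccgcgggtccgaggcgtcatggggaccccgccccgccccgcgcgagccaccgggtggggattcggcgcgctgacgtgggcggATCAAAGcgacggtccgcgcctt
Wnt7a: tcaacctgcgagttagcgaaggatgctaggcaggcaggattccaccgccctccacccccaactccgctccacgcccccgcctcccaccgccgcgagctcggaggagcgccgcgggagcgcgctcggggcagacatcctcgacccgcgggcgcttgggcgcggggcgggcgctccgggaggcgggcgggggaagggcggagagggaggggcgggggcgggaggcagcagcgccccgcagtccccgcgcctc
The match in Wnt11 begins 51 bases before the start site of its window, and it was the only match in the 7 windows. The annotated gene of Wnt11 begins before that start site. The printed stretch therefore stops short of the site, with 222 of the 250 bases, and the match lies nearer to its end. Of all 32851 windows of the table, 3.73% held the motif on either strand. The NF-κB consensus, searched on both strands, was in 4.51% of all windows and in 0 of these 7. A match in such a window is a run of letters and not a measured site.

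Depth was 18040966 to 51956444 reads per sample, and Spearman's rho between samples of a group was 0.996 to 0.998 across genes. CPM, the reads of a gene scaled by the total of its sample, is used to compare a gene between samples, and RPKM, which also divides by exonic length, to compare genes. The fold changes of the tests also use a normalization factor per sample (TMM), which the printed CPM leave out. It was 0.964 to 0.987 at 6 h and 1.02 to 1.03 at 24 h, so CPM compared between the times differ somewhat from the tested fold changes. Across the 18 samples the summed level of 7 renal epithelial markers was 7359 to 9238 CPM, but that of 8 proximal tubule markers was 72.1 to 191.9 CPM. Most of the latter was Cdh6, which averaged 170.4 CPM with vehicle and 105.8 CPM with TWEAK at 6 h, and 137.5 and 64.2 CPM at 24 h. Group means of Lrp2 and Aqp1 reached at most 0.414 and 0.355 CPM. Slc5a2 and Cubn were read in every group, with group means of 6.51 to 8.11 CPM and 2.14 to 4.35 CPM. Slc34a1, Slc22a6 and Hnf4a averaged below 0.1 CPM. As the markers of this list differed so widely, the cells are called RPTEC here by their label only. Reads of 8 pancreatic islet markers, which should be absent from these cells, numbered 185 to 1034 in 14 samples, but 14 in TWEAK 24 h sample 2 and 5 to 8 in the 3 samples with TWEAK + NIK SMI1 at 24 h. Results at 24 h are therefore also given without TWEAK samples 1 and 3, the islet-positive samples of that group, where this changed a call. This includes the pathway genes described further down. The vehicle samples at 24 h were all islet-positive, with 304 to 860 such reads. Comparing TWEAK + NIK SMI1 with vehicle at 24 h therefore sets islet-negative against islet-positive samples, and treatment and islet status cannot be told apart there. Without TWEAK samples 1 and 3, the islet-negative TWEAK sample is set against islet-positive vehicle samples. That setting therefore does not remove the islet difference from TWEAK against vehicle at 24 h. In bulk RNA a smaller share of expressing cells and less RNA per cell cannot be told apart.

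Wnt7b was the most abundant Wnt ligand of these cells at 175.8 RPKM, averaged over the 18 samples. It was followed by Wnt10a at 93.6 RPKM, Wnt7a at 60.7 RPKM and Wnt9a, which is not among the 10 genes, at 21.5 RPKM. Wnt5a had 10.997 RPKM, Wnt4 2.28 RPKM and Wnt11 1.31 RPKM. Of the 19 Wnt ligands, 12 lay below 1 RPKM, and the 5 most abundant held 98.84% of the summed ligand RPKM, with 47.92% in Wnt7b alone. The ranges of the 18 samples did not overlap between Wnt7b, at 160.7 to 195.0 RPKM, and Wnt10a, at 57.2 to 126.8 RPKM, but those of Wnt10a and Wnt7a, at 44.9 to 75.2 RPKM, did. Wnt4, at 1.65 to 2.98 RPKM, and Wnt11, at 0.708 to 2.31 RPKM, also overlapped. Wnt6 averaged 0.0859 RPKM, Lgr5 0.0111 RPKM, Axin2 0.00484 RPKM and Wnt9b 0.000314 RPKM, so that both target genes were at the edge of detection.

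**Figure D1:**
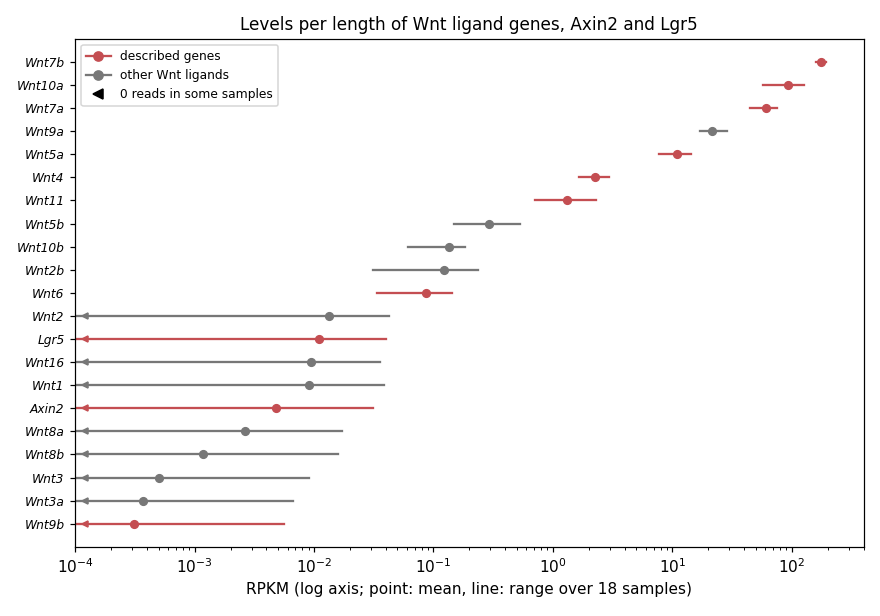
Level per length (RPKM, log axis) of the 19 Wnt ligand genes with Axin2 and Lgr5. Points are means and lines ranges over the 18 samples, and arrows mark genes with 0 reads in some samples. Wnt7b leads at 175.8 RPKM, and Axin2 and Lgr5 lie below 0.1 RPKM in every sample.

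A gene was tested where more than 10 reads were counted in at least 4 samples, which 15521 genes passed. Of the 10 genes, 6 passed (Wnt4, Wnt5a, Wnt7a, Wnt7b, Wnt10a and Wnt11), each with at least 51 reads in every sample, so that no group decided their inclusion. Wnt6, Wnt9b, Axin2 and Lgr5 were not tested. A gene is called changed at a Benjamini-Hochberg adjusted p below 0.05 over all tested genes, by the quasi-likelihood test of edgeR. With TWEAK at 6 h, 3 of the 6 ligands rose and 1 fell, where 11.7% of all tested genes rose and 12.0% fell. At 24 h, 2 rose and 4 fell, against 18.3% and 20.7% of all genes. With NIK SMI1 added to TWEAK, 1 rose and 1 fell at 6 h, against 5.34% and 5.70%, and 3 rose and 1 fell at 24 h, against 10.2% and 8.29%. The TWEAK samples enter both of these comparisons. When TWEAK + NIK SMI1 was compared with vehicle, 2 were higher and 1 lower at 6 h, against 7.24% and 6.70%, and 2 were higher and 3 lower at 24 h, against 8.07% and 9.83%. Without any treatment, 2 were higher and 3 lower at 24 h than at 6 h, against 15.5% and 14.4%. The TWEAK effect itself differed between the times for 4 of the 6, against 8.91% of all genes, and the effect of NIK SMI1 for 2, against 4.73%. Most of these changes were small. Only Wnt11 at 24 h changed more than 2-fold.

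**Figure D2:**
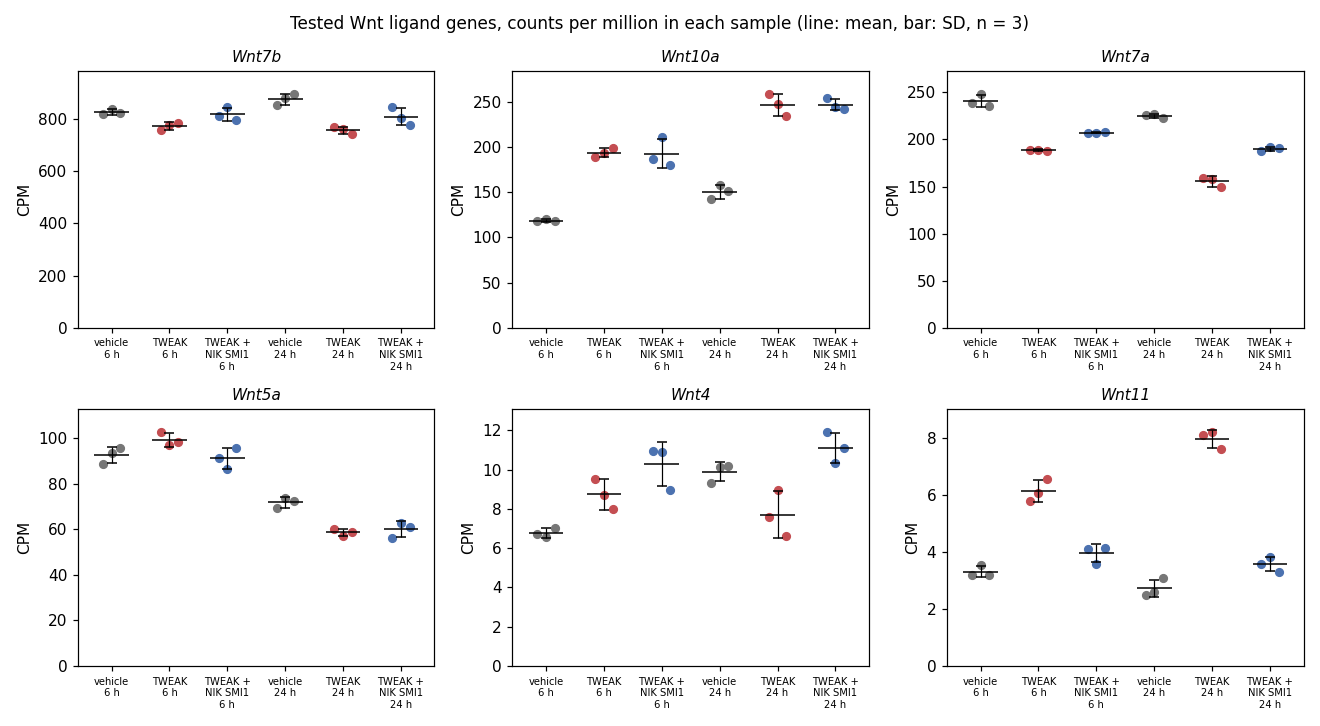
CPM of the 6 tested ligands in each of the 18 samples, with axes from 0. Points are samples, lines group means and bars SD (n = 3). Wnt11 with TWEAK at 24 h averages 7.97 CPM against 2.72 CPM with vehicle, and Wnt10a stands at 247 CPM at 24 h with TWEAK whether or not NIK SMI1 was present.

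Wnt11 rose with TWEAK, and NIK SMI1 took back most of the rise. At 6 h the 3 vehicle samples had 3.21, 3.53 and 3.20 CPM and the 3 TWEAK samples 5.80, 6.08 and 6.55 CPM. With NIK SMI1 the values were 4.12, 3.59 and 4.16 CPM, below every TWEAK sample and above every vehicle sample. At 24 h the vehicle samples had 2.50, 2.59 and 3.08 CPM, the TWEAK samples 8.11, 8.20 and 7.60 CPM, and the samples with NIK SMI1 3.59, 3.83 and 3.32 CPM. The groups did not overlap at either time, and the samples with NIK SMI1 lay nearer to vehicle than to TWEAK. The log2 fold change with TWEAK was 0.91 ± 0.10 (SE, n = 3 per group; adjusted p = 1.06e-07) at 6 h and 1.57 ± 0.11 at 24 h (adjusted p = 9.52e-12), a 2.96-fold increase. The rise was larger at 24 h than at 6 h, with a difference of the effects of 0.66 ± 0.16 (adjusted p = 0.00654). NIK SMI1 lowered Wnt11 under TWEAK by a log2 fold change of -0.64 ± 0.11 at 6 h (adjusted p = 0.00014) and -1.16 ± 0.10 at 24 h (adjusted p = 2.4e-09), the latter a 2.23-fold decrease. Without the islet-positive TWEAK samples the 24 h value was -1.19 (adjusted p = 1.56e-06). The difference between the times in the NIK SMI1 effect, -0.51 ± 0.15, passed the threshold narrowly (adjusted p = 0.0484) and was lost in 16 of 18 alternative analyses. With TWEAK + NIK SMI1, Wnt11 was still 0.41 ± 0.13 (log2) above vehicle at 24 h (adjusted p = 0.0208), a call lost in 4 of 11 alternatives. At 6 h the same comparison gave 0.27, with a 95% interval of 0.0244 to 0.509 and an adjusted p of 0.141. The exons of Wnt11 share 364 of 4137 bases with a processed pseudogene on the opposite strand (Gm8398, GENCODE M21 on GRCm38, chromosome 7), and the library kit did not keep strand, so reads there cannot be assigned to either.

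Wnt10a rose with TWEAK to the same extent at both times, and no effect of NIK SMI1 was detected. At 6 h it had 118, 121 and 118 CPM with vehicle, 189, 193 and 199 CPM with TWEAK, and 187, 211 and 180 CPM with TWEAK + NIK SMI1. At 24 h it had 142, 158 and 151 CPM with vehicle, 259, 248 and 235 CPM with TWEAK, and 254, 244 and 242 CPM with both. Every stimulated sample exceeded every vehicle sample of its time, and the samples with and without NIK SMI1 overlapped. TWEAK raised Wnt10a by 0.72 ± 0.05 (log2, SE) at 6 h (adjusted p = 2.88e-12) and 0.72 ± 0.05 at 24 h (adjusted p = 1.93e-12), about 1.65-fold and 1.64-fold. The effects at the 2 times differed by -0.0034 ± 0.068 (adjusted p = 0.988). Adding NIK SMI1 gave a log2 difference of -0.013 at 6 h (95% interval -0.112 to 0.0852, adjusted p = 0.908) and -0.0028 at 24 h (95% interval -0.0994 to 0.0938, adjusted p = 0.982). Against vehicle, cells with TWEAK + NIK SMI1 had 0.71 ± 0.05 more on the log2 scale at both times (adjusted p = 2.66e-11 and 1.03e-11). Wnt10a lies on chromosome 1 beside Wnt6, which was hardly read in any sample. The exons of both are free of other annotated genes.

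Wnt7a fell with TWEAK at both times and was partly restored by NIK SMI1. At 6 h the vehicle samples had 239, 248 and 235 CPM, the TWEAK samples 189, 189 and 188 CPM, and the samples with NIK SMI1 207, 207 and 207 CPM. At 24 h the values were 226, 227 and 222 CPM with vehicle, 159, 158 and 149 CPM with TWEAK, and 188, 191 and 190 CPM with both. The 3 groups stood apart at each time, with the inhibitor group between the others. TWEAK lowered Wnt7a by a log2 fold change of -0.34 ± 0.03 (SE) at 6 h (adjusted p = 1.35e-09) and -0.54 ± 0.03 at 24 h (adjusted p = 1.22e-13), the latter a 1.45-fold decrease. The effect was stronger at 24 h by -0.20 ± 0.04 (adjusted p = 0.00416; 0.0553 without the islet-positive TWEAK 24 h samples). NIK SMI1 raised it by 0.13 ± 0.03 at 6 h (adjusted p = 0.00683) and 0.29 ± 0.03 at 24 h (adjusted p = 9.97e-08). The larger effect of the inhibitor at 24 h, by 0.16 ± 0.04, had an adjusted p of 0.0394 and was lost in 10 of 18 alternatives. Below vehicle there remained a difference of -0.21 ± 0.03 at 6 h (adjusted p = 1.81e-05) and -0.25 ± 0.03 at 24 h (adjusted p = 7.68e-07).

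Wnt7b, a close relative of Wnt7a and the most abundant ligand, changed in the same direction by less. With vehicle it had 818, 839 and 822 CPM at 6 h and 853, 880 and 895 CPM at 24 h. With TWEAK it had 757, 776 and 785 CPM at 6 h and 767, 761 and 741 CPM at 24 h. With TWEAK + NIK SMI1 it had 810, 844 and 797 CPM at 6 h and 844, 805 and 777 CPM at 24 h. Every TWEAK sample lay below every other sample of its time. The fall of -0.21 ± 0.03 (log2, SE) at 24 h passed the test (adjusted p = 5.7e-06), while that at 6 h was -0.085 ± 0.032 with an adjusted p of 0.0575. The 2 effects were not shown to differ, by -0.13 ± 0.05 (adjusted p = 0.0837). NIK SMI1 gave 0.093 ± 0.032 at 24 h (adjusted p = 0.0444), a call that was lost in 6 of 12 alternatives, among them the fit without the islet-positive TWEAK samples (0.093, adjusted p = 0.278), and 0.075 ± 0.032 at 6 h (adjusted p = 0.156). At 24 h the level with both agents stayed -0.12 ± 0.03 below vehicle (adjusted p = 0.00898; lost without vehicle sample 3 or without inhibitor sample 3, where it reached 0.0829). The exons share 324 of 4898 bases with the antisense gene AU022754 on chromosome 15.

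Wnt4 moved in opposite directions at the 2 times. At 6 h it had 6.71, 6.55 and 7.04 CPM with vehicle, and all 3 TWEAK samples were higher, with 9.54, 8.69 and 7.98 CPM. With TWEAK + NIK SMI1 the values were 10.9, 10.9 and 8.98 CPM, which overlapped with TWEAK alone. At 24 h the vehicle samples had 9.33, 10.1 and 10.2 CPM and the TWEAK samples 7.58, 8.95 and 6.597 CPM, all of them lower. With both agents the values were 11.9, 10.3 and 11.1 CPM, above every other sample of that time. TWEAK raised Wnt4 by 0.37 ± 0.10 (log2, SE) at 6 h (adjusted p = 0.00623) and lowered it by -0.34 ± 0.10 at 24 h (adjusted p = 0.00989). The effects differed by -0.72 ± 0.14 (adjusted p = 0.00127; 0.0476 without the islet-positive TWEAK 24 h samples). The fall at 24 h was lost without TWEAK sample 3 and without the islet-positive samples, where it was -0.14 with an adjusted p of 0.442. NIK SMI1 raised Wnt4 under TWEAK by 0.52 ± 0.10 at 24 h (adjusted p = 0.000293), but by 0.32 with an adjusted p of 0.112 against the islet-negative TWEAK sample alone. The islet-negative sample was the highest of the TWEAK samples, and the part of the islet-derived reads in these results was not tested. At 6 h the inhibitor effect was 0.25 ± 0.10 (adjusted p = 0.126). With both agents Wnt4 stood 0.62 ± 0.10 above vehicle at 6 h (adjusted p = 9.9e-05), and at 24 h the difference was 0.17, with a 95% interval of -0.0308 to 0.381 (adjusted p = 0.266).

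Wnt5a fell with time and, at 24 h, with TWEAK. The vehicle samples had 88.6, 93.2 and 95.7 CPM at 6 h and 69.2, 73.8 and 72.6 CPM at 24 h, a log2 fold change of -0.44 ± 0.05 (SE, adjusted p = 2.18e-08). With TWEAK at 24 h the values were 60.2, 57.1 and 58.8 CPM, and with both agents 56.1, 62.9 and 61.2 CPM. Both treated groups lay below every vehicle sample and overlapped with each other. TWEAK lowered Wnt5a by -0.29 ± 0.05 at 24 h (adjusted p = 1.3e-05), and NIK SMI1 left it there, with a difference of 0.029 (95% interval -0.0663 to 0.124, adjusted p = 0.75) and a remaining distance of -0.26 ± 0.05 to vehicle (adjusted p = 0.000126). At 6 h TWEAK samples had 102, 96.8 and 98.4 CPM and those with both agents 91.1, 86.3 and 95.8 CPM. Each TWEAK sample was above all others of that time, but neither the effect of TWEAK, 0.11 ± 0.04 (adjusted p = 0.0661), nor that of NIK SMI1, -0.13 ± 0.04 (adjusted p = 0.059), passed the test. The TWEAK effect differed between the times by -0.40 ± 0.06 (adjusted p = 8.2e-05). The exons share 358 of 7823 bases with the antisense gene Gm2670 on chromosome 14.

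**Figure D3:**
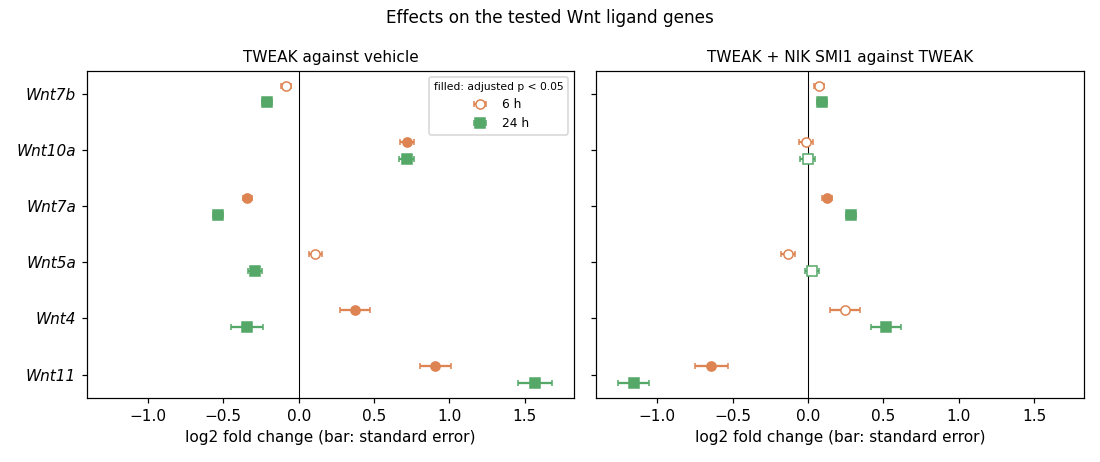
Log2 fold changes of the 6 tested ligands with TWEAK (left) and with NIK SMI1 added to TWEAK (right), at 6 h (circles) and 24 h (squares). Bars are standard errors from the fit of all 18 samples and filled symbols passed an adjusted p of 0.05. Wnt11 rises by 1.57 with TWEAK at 24 h and falls by 1.16 with the inhibitor, while both inhibitor effects on Wnt10a lie at 0 within their errors.

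In the untreated cells the ligands also changed between the time points. Wnt4 was higher at 24 h by 0.47 ± 0.10 (log2, SE; adjusted p = 0.00103) and Wnt10a by 0.27 ± 0.05 (adjusted p = 9.05e-05). Besides Wnt5a, Wnt7a was lower by -0.16 ± 0.03 (adjusted p = 0.000183) and Wnt11 by -0.37 ± 0.13 (adjusted p = 0.028), the last of which was lost in 5 of 11 alternatives. For Wnt7b the difference was 0.018 (adjusted p = 0.736), with the normalization factors included. In CPM, which leave them out, every vehicle sample of Wnt7b was higher at 24 h than at 6 h. The time difference in vehicle was thus larger than the TWEAK effect at 6 h for Wnt4 and Wnt5a, a comparison of sizes that was not tested.

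The remaining 4 genes were too low to test with the filter. Wnt6, a ligand of epithelia that is expressed in the ureteric bud, had 3 to 15 reads per sample and 126 in all 18. With vehicle it had 7, 3 and 5 reads at 6 h and 5, 4 and 7 at 24 h. With TWEAK it had 4, 8 and 9, and 3, 15 and 10. With both agents it had 5, 7 and 4, and 14, 6 and 10. The groups overlapped at each time in every pair. Wnt9b, the ligand of the ureteric bud that induces nephrons, had 1 read in all, in TWEAK 6 h sample 3. At these depths 3 reads, taken as the limit that a count of 0 allows, correspond to 0.0577 to 0.166 CPM, which covers counting error only.

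Axin2 had 19 reads in the 18 samples, 8 of them in TWEAK 24 h sample 2, where they made 0.171 CPM. No other sample had more than 2. With vehicle there were 0, 0 and 0 reads at 6 h and 2, 0 and 0 at 24 h, and with TWEAK 1, 2 and 0 at 6 h and 1, 8 and 1 at 24 h. With both agents there were 1, 1 and 0 at each time. Lgr5 had 33 reads, 0 to 6 per sample. Vehicle samples held 1, 2 and 1 reads at 6 h and 6, 3 and 4 at 24 h. TWEAK samples held 3, 5 and 2, and 0, 1 and 4. With TWEAK + NIK SMI1 there were 0 reads in each 6 h sample and 0, 1 and 0 at 24 h. In the 6 h samples with both agents, 3 reads correspond to 0.0835 to 0.166 CPM. Vehicle samples of that time had 0.0192 to 0.0534 CPM of Lgr5 and TWEAK samples 0.0528 to 0.0994 CPM. The counts of 0 therefore do not place the inhibitor samples below the others at 6 h. At 24 h the vehicle samples had 0.140 to 0.195 CPM of Lgr5, above every treated sample. TWEAK samples had 0 to 0.0956 CPM and those with both agents 0 to 0.0290 CPM. In the latter group 3 reads correspond to 0.0677 to 0.0975 CPM. This separation rests on 0 to 6 reads per sample. Without a filter on low counts edgeR called a single comparison among these 4 genes, Lgr5 in TWEAK + NIK SMI1 against vehicle at 24 h (adjusted p = 0.0475; 0.148 to 0.808 in its other comparisons). With 13 against 1 reads over the groups no fold is given. In no sample did Axin2 exceed 0.171 CPM or Wnt9b 0.0264 CPM, and changes within that range could not be resolved at this depth. The exons of Axin2 share 209 of 5506 bases with the antisense gene Gm11670 on chromosome 11.

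**Figure D4:**
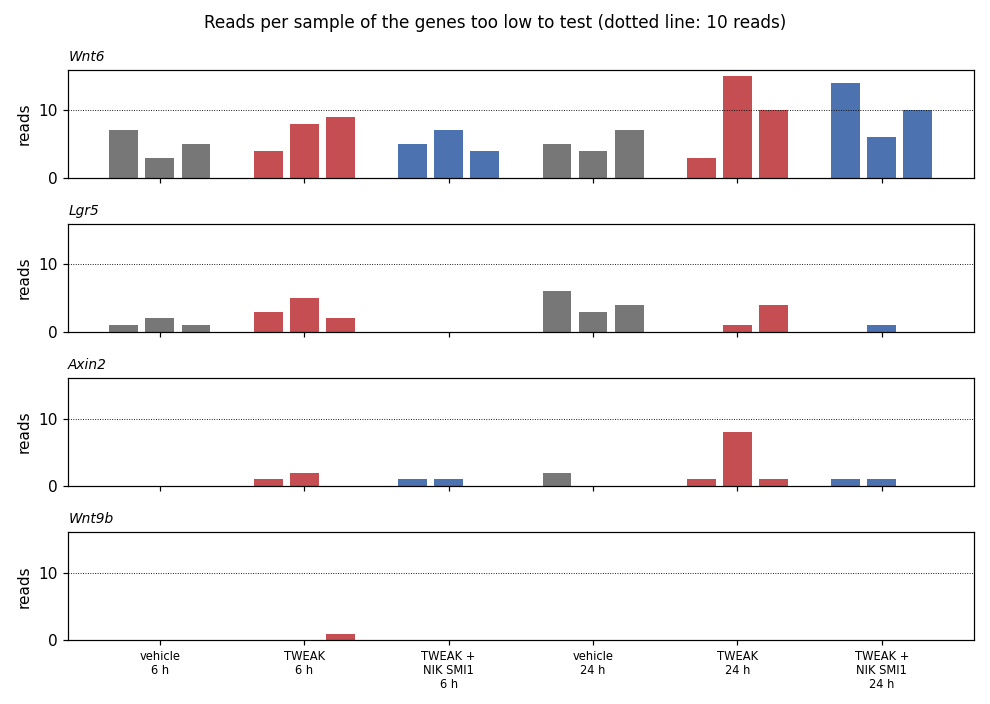
Reads per sample of Wnt6, Lgr5, Axin2 and Wnt9b, the genes too low to test, in vehicle (grey), TWEAK (red) and TWEAK + NIK SMI1 (blue) samples, 3 bars per group. The dotted line marks 10 reads. Only Wnt6 exceeds it, with 15 and 14 reads, and the Axin2 reads stand mostly in 1 sample.

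To place the ligands in their pathway, 79 other Wnt pathway genes were counted, of which 53 were tested. With TWEAK, 5 rose and 17 fell at 6 h and 9 rose and 17 fell at 24 h, with median log2 fold changes of -0.082 and -0.055 against -0.0034 and -0.0055 over all tested genes. The 9 include Sp5, which passed the filter only through the TWEAK groups where it was high. With NIK SMI1, 7 rose and 3 fell at 6 h, and 10 rose and 5 fell at 24 h (medians 0.052 and 0.019, against 0.0029 and 0.0083). Some calls for TWEAK and for NIK SMI1 at 24 h were lost without the islet-positive TWEAK samples, and none changed direction. That setting leaves only 1 TWEAK 24 h sample, so a lost call need not mean a changed size. With TWEAK, Axin1 had 0.147 there against 0.153 with all samples, Dvl3 0.161 against 0.142 and Bcl9l -0.205 against -0.224. The counts of the 53 genes and of the single lists below stand beside the shares of all genes given above. Some counts of single lists lie near those shares, and no test of the lists was made.

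Of the ligands beyond the 10 genes, 4 of 11 were tested, and Wnt9a alone was called. It fell with TWEAK by -0.40 ± 0.04 at 6 h (adjusted p = 2.21e-09) and -0.64 ± 0.04 at 24 h (adjusted p = 1.74e-13), like Wnt7a, and rose with NIK SMI1 by 0.32 ± 0.04 at 24 h (adjusted p = 4.4e-07). Both genes of ligand secretion fell at both times. Porcn changed by -0.33 ± 0.07 and -0.54 ± 0.08 (adjusted p = 0.000932 and 3.96e-06) and Wls by -0.10 ± 0.03 and -0.24 ± 0.03 (adjusted p = 0.0388 and 2.8e-06), of which the 6 h call of Wls was lost in 6 of 11 alternatives. At 24 h both were raised by NIK SMI1, Porcn by 0.24 ± 0.08 and Wls by 0.12 ± 0.03 (adjusted p = 0.0327 and 0.0141). These calls were lost in 5 and 2 of 12 alternatives, that of Porcn also without the islet-positive TWEAK samples (adjusted p = 0.202).

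Among receptors and co-receptors, 15 of 16 were tested. With TWEAK, 6 of them fell at 6 h, where 12.0% of all tested genes fell. At 24 h 6 fell and 3 rose, against 20.7% and 18.3% of all genes. Fzd4 fell from 23.6 ± 1.3 CPM (SD, n = 3) to 13.5 ± 0.55 CPM at 6 h and from 28.2 ± 0.84 to 13.0 ± 0.69 CPM at 24 h, log2 fold changes of -0.79 ± 0.06 and -1.10 ± 0.06 (SE; adjusted p = 5.75e-11 and 7.3e-14). Fzd1 fell by -0.68 ± 0.04 and -0.97 ± 0.04 (adjusted p = 7.26e-13 and 4.29e-16), and Fzd5 by -0.55 ± 0.04 at 6 h (adjusted p = 1.58e-10). Fzd5 also fell at 24 h, by -0.53 (adjusted p = 5.22e-10), a value given after it was seen. Fzd9 was the largest rise, 0.85 ± 0.32 at 24 h (adjusted p = 0.0379), and was lost in 7 of 12 alternatives. The other rises at 24 h were Fzd7 by 0.17 and Ryk by 0.15. Both calls, and the fall of Fzd6 by -0.12, were lost without the islet-positive TWEAK samples. Their sizes there were 0.15 for Fzd7, 0.14 for Ryk and -0.14 for Fzd6. At 6 h the fall of Fzd8 was lost in 10 of 11 alternatives. Fzd6, Fzd7, Fzd8 and Ryk were named after their values were seen. With NIK SMI1, 4 receptors rose at 6 h, against 5.34% of all genes, and 3 rose and 1 fell at 24 h, against 10.2% and 8.29%. It raised Fzd4 by 0.27 ± 0.07 and 0.43 ± 0.06, Fzd1 by 0.23 ± 0.04 and 0.35 ± 0.04, and Fzd5 by 0.21 ± 0.05 and 0.27 ± 0.05 at 6 h and 24 h (adjusted p from 9.35e-07 to 0.00726, and 0.0505 for Fzd4 at 6 h without TWEAK 6 h sample 1). The receptor that fell, Fzd7, was named after its value was seen. It changed by -0.14 ± 0.04 (adjusted p = 0.022, and 0.226 without the islet-positive TWEAK samples).

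The R-spondins were not tested, as too few reads were counted. Of the Lgr receptors that bind them, Lgr6 was the most abundant per length. It had 46.7 ± 1.3 RPKM (SD, n = 3) with vehicle at 6 h while Lgr4 had 3.39 ± 0.14 RPKM and Lgr5 0.0072 RPKM. TWEAK lowered Lgr6 by -0.51 ± 0.03 at 6 h and -0.21 ± 0.03 at 24 h (adjusted p = 1.06e-12 and 5e-06) and Lgr4 by -0.24 ± 0.06 and -0.17 ± 0.06 (adjusted p = 0.00556 and 0.033, the latter lost in 5 of 12 alternatives). NIK SMI1 raised Lgr6 by 0.24 ± 0.03 and 0.12 ± 0.03 (adjusted p = 6.24e-06 and 0.00947), and the value at 24 h had an adjusted p of 0.0543 without the islet-positive TWEAK samples. Of the secreted and surface inhibitors 4 of 15 were tested. Kremen1, a receptor for Dkk proteins, fell by -0.44 ± 0.04 and -0.55 ± 0.04 with TWEAK (adjusted p = 1.63e-09 and 1.78e-11) and rose by 0.30 ± 0.04 and 0.21 ± 0.04 with the inhibitor (adjusted p = 8.08e-06 and 0.000466). Apcdd1, a membrane inhibitor of the pathway, fell by -0.76 ± 0.09 at 24 h (adjusted p = 5.18e-08) and rose by 0.46 ± 0.09 with the inhibitor (adjusted p = 0.000205).

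Of the 11 genes for the destruction complex, Dvl proteins and β-catenin, 1 rose and 1 fell with TWEAK at 6 h, against 11.7% and 12.0% of all genes. At 24 h 2 rose and 1 fell, against 18.3% and 20.7%. β-catenin (Ctnnb1) rose by 0.12 ± 0.03 and Dvl2 fell by -0.26 ± 0.06 at 6 h (adjusted p = 0.000969 and 0.00243), and at 24 h Apc2 fell by -0.35 ± 0.10 (adjusted p = 0.0052) while Axin1, the relative of Axin2, rose by 0.15 ± 0.04 (adjusted p = 0.00274) and Dvl3 by 0.14 ± 0.06 (adjusted p = 0.0424). Without the islet-positive TWEAK samples the rises of Axin1 and Dvl3 were lost (adjusted p = 0.0572 and 0.142). With NIK SMI1, Dvl2 rose by 0.25 ± 0.07 and Ctnnb1 fell by -0.090 ± 0.03 at 6 h (adjusted p = 0.0132 and 0.0298), and Axin1 fell by -0.11 ± 0.04 at 24 h (adjusted p = 0.0418). These 3 calls were lost in 3 of 11, 4 of 11 and 7 of 12 alternatives. Of the 8 TCF/LEF factors and coactivators, 2 rose and 3 fell with TWEAK at 6 h, against 11.7% and 12.0% of all genes. At 24 h 1 rose and 2 fell, against 18.3% and 20.7%. Tcf7 rose by 0.72 ± 0.05 at 6 h and 1.05 ± 0.05 at 24 h (adjusted p = 2.22e-12 and 8.58e-16) and was lowered by NIK SMI1 by -0.37 ± 0.05 and -0.48 ± 0.05 (adjusted p = 2.95e-06 and 7.16e-09). Tcf7l2 fell by -0.36 ± 0.07 and -0.30 ± 0.08 (adjusted p = 0.000371 and 0.00214), Bcl9l by -0.22 ± 0.05 at 24 h (adjusted p = 0.00151, and 0.0517 without the islet-positive TWEAK samples), and Lef1 by -0.38 ± 0.09 at 6 h (adjusted p = 0.00164).

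Of 15 further genes known as Wnt/β-catenin targets in other tissues, 10 were tested, and they moved both ways. With TWEAK, 3 rose and 2 fell at 6 h, against 11.7% and 12.0% of all genes. At 24 h 4 rose and 2 fell, against 18.3% and 20.7%. Beside Tcf7, Cd44, an adhesion receptor with many other regulators, rose by 0.69 ± 0.03 and 0.80 ± 0.03 (adjusted p = 5.41e-15 and 1.44e-16) and fell by -0.48 ± 0.03 and -0.47 ± 0.03 with NIK SMI1 (adjusted p = 7.72e-11 and 4.31e-11). Myc rose by 0.41 ± 0.03 at 6 h (adjusted p = 1.52e-10). At 24 h it rose by 0.66 with TWEAK and changed by -0.34 with NIK SMI1 (adjusted p = 8.41e-15 and 1.32e-08), values given after they were seen. Sp5, a transcription factor gene counted among the 4, had 8 reads over the vehicle and 49 over the TWEAK samples at 24 h. It exceeded 10 reads in 6 TWEAK samples and in 2 others, so that it was tested through the groups where it was high, and no fold or test is given. Its call was lost without vehicle 24 h sample 1 and without the islet-positive TWEAK samples. Apcdd1 and Lef1, given above, belong to this list too and fell, at 24 h and at 6 h respectively. Ccnd1, with 3283 CPM in vehicle at 6 h, fell with TWEAK by -0.082 at 6 h and -0.18 at 24 h (adjusted p = 0.0119 and 7.97e-07). The 6 h call was lost in 2 of 11 alternatives. With NIK SMI1 Ccnd1 rose by 0.13 at 24 h (adjusted p = 0.000136). The values of Ccnd1 are given after they were seen. With NIK SMI1, 2 of the 10 fell at 6 h, against 5.70% of all genes. At 24 h 2 rose and 3 fell, against 10.2% and 8.29%.

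**Figure D5:**
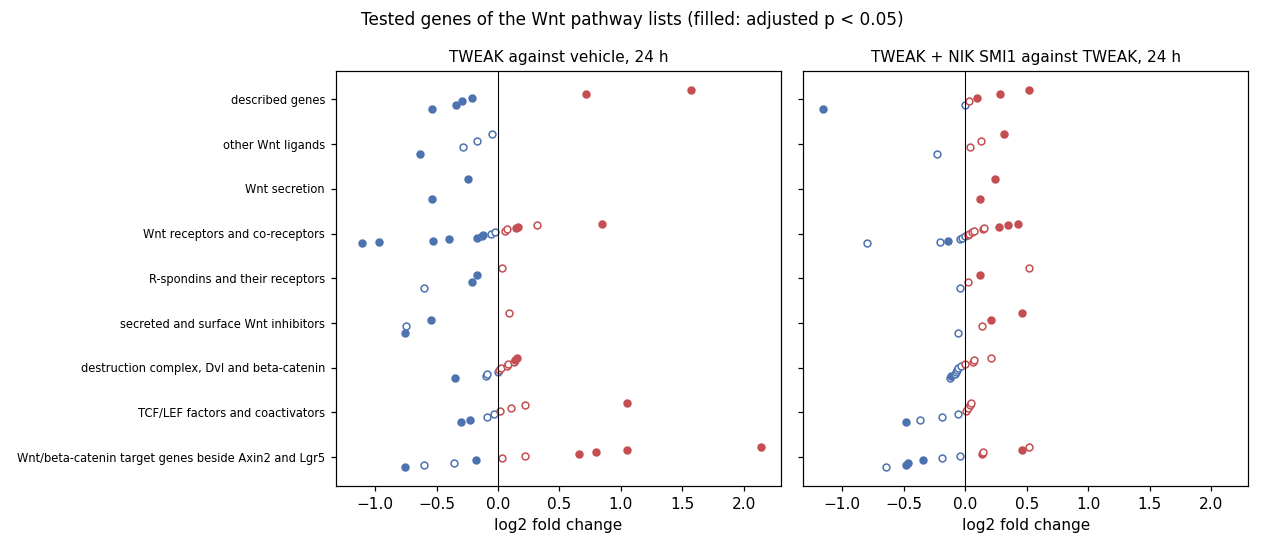
Log2 fold changes at 24 h of every tested gene in the Wnt pathway lists, with TWEAK (left) and with NIK SMI1 added to TWEAK (right). Each point is a gene, red above and blue below 0, filled where the adjusted p was below 0.05. Fzd4 at -1.10 and Fzd1 at -0.97 are the lowest receptors with TWEAK, and Tcf7 stands at 1.05. The point farthest right among the target genes is Sp5, which passed the filter through its TWEAK samples.

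The tested genes whose log2 CPM over the 18 samples was most like that of each ligand are given as a description. The samples share groups, so a high Pearson's r reflects a like order of the group levels. Wnt11 was nearest to Itga5, an integrin subunit (r = 0.983), then Cd82 and Dusp22. Wnt7a was nearest to Lmcd1 (r = 0.985), Dusp6 and Serpinb8, and Wnt10a to Sh3bp5 (r = 0.970), Gadd45b and Cdh3. Wnt5a was nearest to Lcn2 (r = 0.970), Alcam and Selenop, and Wnt7b to Cd81 (r = 0.946), Slc44a4 and Slc27a4. For Wnt4 the nearest gene, 1300002E11Rik, reached 0.757, ahead of Gm15471 and Pstpip2.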

How the data were processed

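RNASeq libraries of 18 samples (6 groups of 3) were analysed from the deposited tables. Per the methods, the authors used HTSeqGenie and GSNAP to place reads on NCBI build 37 of the mouse, and deposited as a raw count per gene the reads that mapped uniquely to its exons. The authors also deposited RPKM values and the exonic width of each gene, which entered no test. The labels and the methods differ on the sequencer, read length and RNA input. Symbols were matched by Entrez identifier for 31049 of 36528 genes. Exon overlaps come from GENCODE M21 on GRCm38 and promoters from RefSeq (GRCm38.p6), and no position was converted between builds.

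Following the study, genes exceeding 10 reads in 4 or more samples were fitted in edgeR 4.0.16 (R 4.3.3; TMM, glmQLFit, glmQLFTest) with all 18 samples as 6 groups, and p-values were adjusted by Benjamini-Hochberg over the 15521 tested genes. Standard errors follow from the F statistic and intervals are 95% t intervals. The script was tested on simulated data. Depth was 18040966 to 51956444 reads per sample and the common biological coefficient of variation 0.0404. Pairs of samples of a group differed by more than sampling noise (chi-square 2.16 to 9.76 per gene), so none was counted as a duplicate. Alternatives were DESeq2 1.42.0 (the tool of the study), its size factors in edgeR, no filter or filterByExpr, a fit of the samples compared alone, each sample left out, the islet-positive TWEAK 24 h samples left out, and a fold cut-off of 2 (1.5 for NIK SMI1).

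The 10 genes and the lists were chosen with earlier results of these data known. All 10 genes are named, and from each pathway list up to 3 called genes with the largest change, for TWEAK and for NIK SMI1 at each time. Ligand comparisons not given above were not called. TWEAK + NIK SMI1 against vehicle at 6 h gave -0.020 for Wnt5a and -0.010 for Wnt7b (adjusted p = 0.835 and 0.89). The NIK SMI1 effect differed between times by 0.27 for Wnt4, 0.16 for Wnt5a, 0.018 for Wnt7b and 0.010 for Wnt10a (adjusted p = 0.307, 0.163, 0.882 and 0.957). The alternatives were applied to the pathway genes after the data had been seen. Likeness is Pearson's r of log2(CPM + 0.1). Replicate numbers follow accession order, as the labels give none.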

Additional observations from a re-analysis of the deposited data

Results flagged for a closer look

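The effect of TWEAK differed between 6 h and 24 h for 4 ligands, by the interaction contrast of the edgeR fit. The log2 difference of the effects, 24 h minus 6 h, was -0.72 for Wnt4, which rose at 6 h and fell at 24 h, -0.40 for Wnt5a, -0.20 for Wnt7a and 0.66 for Wnt11. Without the islet-positive TWEAK 24 h samples these values were -0.52, -0.45, -0.18 and 0.69, and the adjusted p of Wnt7a became 0.0553. The effect of NIK SMI1 under TWEAK also differed between the times, by 0.16 for Wnt7a and -0.51 for Wnt11. Both lay close to the threshold, with adjusted p of 0.0394 and 0.0484. The 6 h and 24 h groups are separate samples, and the contrasts for TWEAK and for NIK SMI1 share the TWEAK samples.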

How the results depend on the processing

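No called ligand changed direction under any alternative. Neither did a called pathway gene for TWEAK or NIK SMI1 at either time, in alternatives added after the data had been seen, but 4 of 22 and 9 of 26 TWEAK calls (6 h, 24 h) and 4 of 10 and 5 of 15 NIK SMI1 calls were lost in at least 1. With the fold cut-off added, 0 of the ligands were called for TWEAK at 6 h and 1 at 24 h (Wnt11), 1 for NIK SMI1 at each time (Wnt11), and 0 in the comparisons of TWEAK + NIK SMI1 with vehicle, of the vehicle times and of the effects between times. Leaving out single samples gave 2 to 4 calls for NIK SMI1 at 6 h, the 4 without TWEAK + NIK SMI1 6 h replicate 3. For the difference of the NIK SMI1 effect between times it gave 0 to 2 calls, and DESeq2, its size factors, no filter and the compared samples alone each gave 1. Leaving out the islet-positive TWEAK 24 h samples gave 2 calls for NIK SMI1 at 24 h, Wnt7a and Wnt11, and 0 for that difference. Only 1 TWEAK 24 h sample remains in that setting, and it is assumed to vary like the other groups. Some calls near the threshold appeared in an alternative only: Wnt7b with TWEAK at 6 h (adjusted p from 0.0439), Wnt5a with NIK SMI1 at 6 h (from 0.0298), Wnt4 with NIK SMI1 at 6 h (from 0.0422), and the time differences of the TWEAK effect on Wnt7b (from 0.0489) and of the NIK SMI1 effect on Wnt5a (from 0.0403). The calls of Wnt10a held in every alternative without a fold cut-off. The cause of the changes was not tested. No paired analysis was possible because the labels give no replicate numbers. Depth limits Wnt6, Wnt9b, Axin2 and Lgr5.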

Other observations

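The 53 tested Wnt pathway genes outside the 10 described were also compared where TWEAK alone was not involved. In vehicle 12 were called higher and 7 lower at 24 h than at 6 h, where 15.5% and 14.4% of all tested genes were. With TWEAK + NIK SMI1 4 were called higher and 10 lower than vehicle at 6 h, against 7.24% and 6.70% of all genes, and 3 higher and 12 lower at 24 h, against 8.07% and 9.83%. No test of the lists was made. Among the low ligands the difference of Wnt5b with TWEAK was -0.65 ± 0.26 on the log2 scale at 6 h, short of the threshold (edgeR, adjusted p = 0.0677) and -0.17 ± 0.30 at 24 h. Dkk1, which encodes a secreted inhibitor and is a target gene in many tissues, had 0 reads in all 18 samples.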
